A study of Mus musculus with 7 samples.

Results

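The early neural regulators considered here are 6 mouse transcription factor genes, Sox1, Pax6, Six3, Hesx1, Pou3f2 and Pou3f3. Their members are the ATAC-seq sites whose midpoint lies within 50 kb of a curated RefSeq transcription start site (TSS) of any of these genes, which gave 50 of 75880 sites in the series. In ATAC-seq the Tn5 transposase cuts open chromatin, so that reads collect at accessible promoters and enhancers. The comparison asks whether loss of Smad2 and Smad3, intracellular effectors of Nodal and activin signaling, altered accessibility around these genes. WT cells were CCE embryonic stem cells (ESCs; strain 129/Sv//Ev), and Smad2/3 DKO cells were clone KT15.1F6, which carries the older targeted Smad2 tm1Rob allele on both chromosomes and Smad3 with exon 1 deleted by CRISPR/Cas9 nickase. Both genotypes were moved from 2i and LIF into N2B27 medium with 20 ng/ml activin A, 12 ng/ml Fgf2 and 1% KSR for 48 h to form day 2 epiblast-like cells (EpiLCs), in 3 separate differentiations each. Each transposition took 75000 cells. A single library of Tn5-treated genomic DNA (100 ng, from WT EpiLCs) served as control for calling sites. With 1 clone per genotype, clone and genotype cannot be told apart.

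Sox1 is an HMG-box factor and among the earliest markers of committed neuroectoderm. Pax6, a paired and homeodomain factor, directs eye and forebrain development, while the homeodomain factors Six3 and Hesx1 act in the anterior neural plate. Hesx1 also acts in the pituitary primordium. Pou3f2 and Pou3f3 (Brn2 and Brn1) are POU factors of neural progenitors and bind octamer DNA. Nodal signaling holds epiblast cells back from the neural fate, which is the default that pluripotent cells take when it is blocked, and promoters of such developmental genes are commonly CpG rich and accessible before the genes are transcribed.

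Each site has 1 deposited value per genotype, its concentration, which is the log2 of the authors' mean of normalized reads over the libraries of that genotype. A concentration of 4 is a mean of 16 reads. There is no value per library, so the depth is unknown and no SD or interval can be computed. The p-values and FDRs of the authors' own comparison were not used here, and no difference below carries a test. A site is called lower or higher when the DKO minus WT difference passes 1.5-fold (0.585 on the log2 scale). As a yardstick, each difference is set beside the range that holds the central 90% of all sites with a concentration within 0.25 log2 of its own, which describes how far sites of like signal vary and is not a test. The inactivated genes match their labels where the assay can show it. The site 221 bp upstream of the Smad3 TSS was at 5.42 in WT and at -0.10 in DKO, which is the lowest DKO value listed for any site. The site at the Smad2 TSS was at 8.35 in WT and 8.28 in DKO, and the sources used here do not say whether that allele removes sequence under it. Sites within 1 kb of a TSS were present at 5 of 6 EpiLC markers (Otx2 had none), 7 of 7 naive ESC markers, 3 of 4 neural progenitor markers and 3 of 3 fibroblast markers, so the presence of a promoter site does not tell these cell types apart.

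The sequences below, from the mm10 reference, are those on which the results turn. The first is the centre of the only member site that was called lower, the next pair are the whole sites called higher, and then follows the centre of the only site whose nearest TSS is that of Hesx1. The last is the centre of a distal Sox1 site that holds a POU octamer, ATGCAAAT, which the capitals mark.
Six3, 7094 bp upstream, lower, chr17:85613591-85613890, + strand: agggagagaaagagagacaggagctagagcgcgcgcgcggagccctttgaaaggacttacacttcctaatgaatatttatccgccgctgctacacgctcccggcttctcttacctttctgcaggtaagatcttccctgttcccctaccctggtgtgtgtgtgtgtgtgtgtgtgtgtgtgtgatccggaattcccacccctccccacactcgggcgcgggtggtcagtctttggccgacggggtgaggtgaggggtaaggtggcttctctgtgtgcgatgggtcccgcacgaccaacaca
Six3, 13066 bp downstream, higher, chr17:85633800-85634000, + strand: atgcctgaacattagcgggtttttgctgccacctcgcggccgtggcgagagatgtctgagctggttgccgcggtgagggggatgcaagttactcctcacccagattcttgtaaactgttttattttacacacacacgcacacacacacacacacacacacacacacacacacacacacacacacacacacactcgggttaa
Pax6, 45612 bp downstream, higher, chr2:105727960-105728190, + strand: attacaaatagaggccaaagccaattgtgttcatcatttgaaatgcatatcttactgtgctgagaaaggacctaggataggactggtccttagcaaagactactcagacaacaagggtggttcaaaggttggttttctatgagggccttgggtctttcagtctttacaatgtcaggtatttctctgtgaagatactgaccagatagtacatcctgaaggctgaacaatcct
Hesx1, 5777 bp upstream, within 1.5-fold, chr14:26994436-26994735, + strand: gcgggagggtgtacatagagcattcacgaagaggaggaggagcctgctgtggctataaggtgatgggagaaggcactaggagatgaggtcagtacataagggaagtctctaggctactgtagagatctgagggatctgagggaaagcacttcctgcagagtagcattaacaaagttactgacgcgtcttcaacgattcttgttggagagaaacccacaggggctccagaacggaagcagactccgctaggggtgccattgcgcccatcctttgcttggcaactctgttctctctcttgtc
Sox1, 43761 bp downstream, within 1.5-fold, chr8:12439131-12439430, + strand: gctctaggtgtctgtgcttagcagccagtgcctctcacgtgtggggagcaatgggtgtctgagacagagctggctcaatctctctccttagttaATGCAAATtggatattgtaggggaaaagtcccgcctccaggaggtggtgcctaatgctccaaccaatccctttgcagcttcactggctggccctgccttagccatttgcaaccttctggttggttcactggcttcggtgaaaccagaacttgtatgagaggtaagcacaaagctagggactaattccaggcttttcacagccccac

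The genotype means differed little around the 6 genes. Of the 50 sites, 1 was lower in DKO EpiLCs, 2 were higher and 47 lay within 1.5-fold. This is 2% lower and 4% higher, beside 16.0% lower and 8.51% higher over all 75880 sites. The median difference was 0.005 on the log2 scale, with quartiles at -0.19 and 0.15, beside -0.08 with quartiles at -0.39 and 0.20 over all sites. The member sites divided evenly, with 25 below 0 and 25 above. Their signal was somewhat higher (median concentration 5.53 against 5.00) and they were wider (median 680 bp against 400 bp), and strong sites vary less. Sites of like concentration held on average 12.6% lower and 6.17% higher calls, which corresponds to 6.31 and 3.08 sites of 50. At a concentration of at least 4, the member sites numbered 45, of which 1 was lower and 0 were higher, beside 12.4% and 5.40% of all sites above that level. In all, 49 of 50 sites lay inside the range of their like, which is meant to hold 90%. These are counts over sites that share loci and were not tested. The nearest curated TSS was that of the gene itself at 5 of 5 Sox1, 11 of 14 Pax6 and 4 of 10 Six3 sites. This held for 1 of 4 Hesx1, 3 of 7 Pou3f2 and 3 of 10 Pou3f3 sites. The remaining sites lie nearer the TSS of another gene, so the counts and sums describe windows around the 6 genes.

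**Figure D1:**
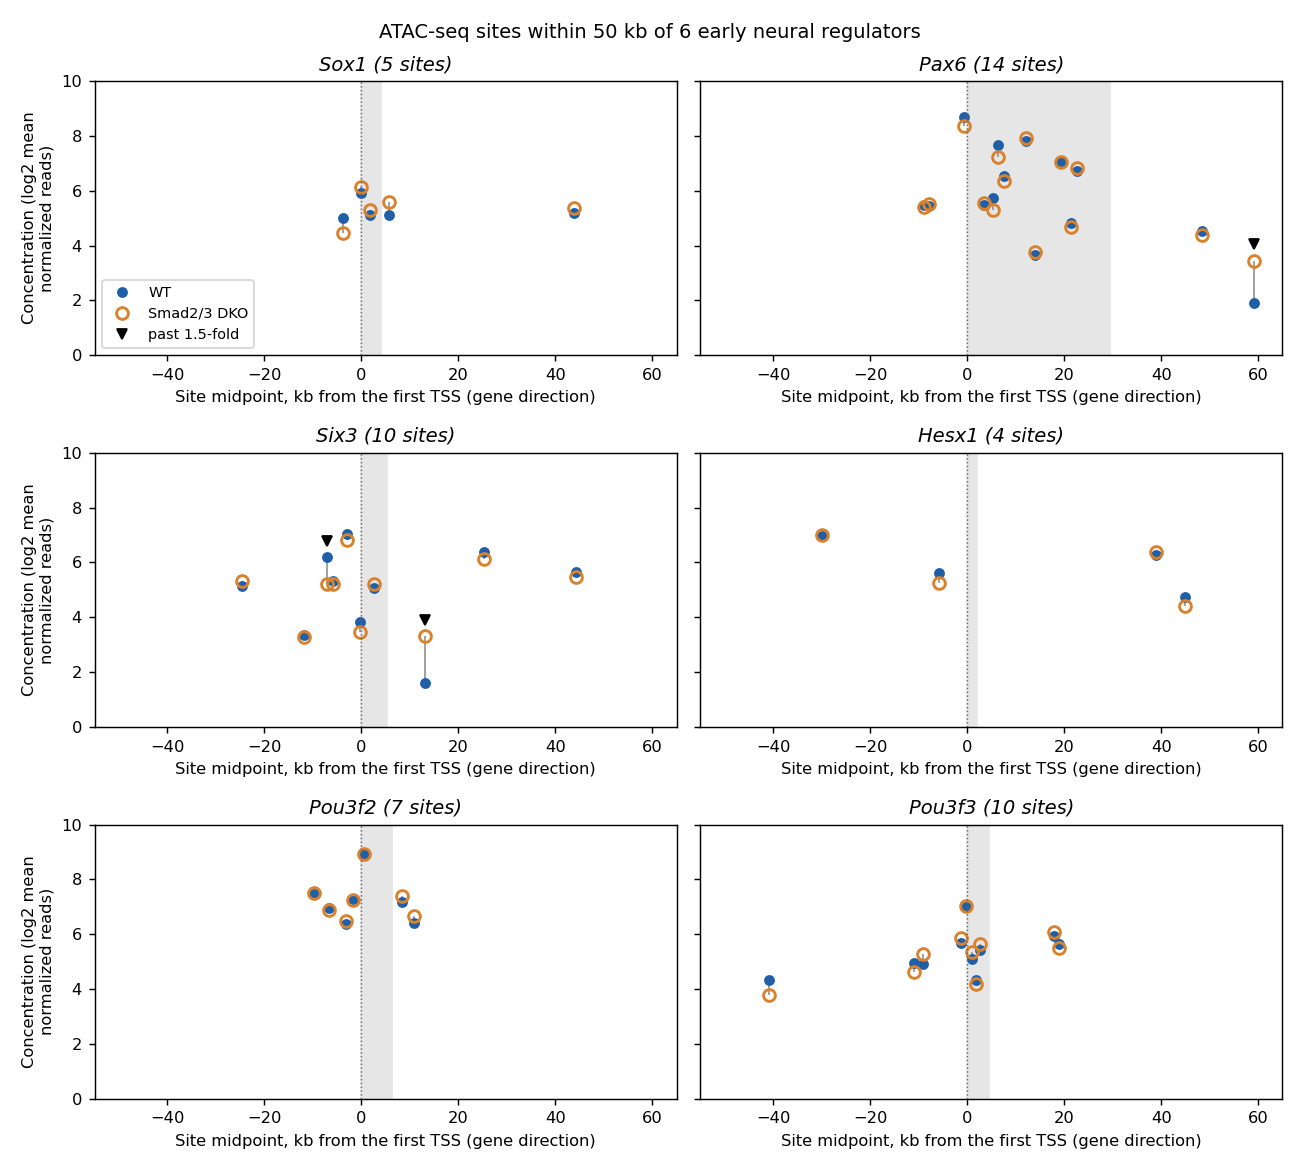
Concentration (log2 mean normalized reads) in WT (filled) and Smad2/3 DKO EpiLCs (open) at each of the 50 sites, by distance in kb of the site midpoint from the gene's first TSS; grey marks the gene body and triangles mark sites past 1.5-fold. Filled and open symbols nearly coincide at most sites, and the 3 triangles lie in the Pax6 and Six3 panels.

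By distance from the TSS, the 8 sites within 1 kb had a median difference of -0.10 (from -0.43 to 0.24), the 13 sites between 1 and 5 kb a median of 0.10 (from -0.54 to 0.27) and the 29 sites farther out a median of -0.04 (from -1.0 to 1.73). The 3 sites past 1.5-fold were all among those over 5 kb away. By the curated transcripts of any gene at the midpoint, 28 sites lay in introns, 12 were intergenic, 5 lay in coding exons and 5 in untranslated or noncoding exons. The introns include those of other genes. The promoter sites of Sox1 and Pou3f3 and the first of Pax6 thus count as intronic, in Sox1ot, Gm46091 and Pax6os1.

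**Figure D2:**
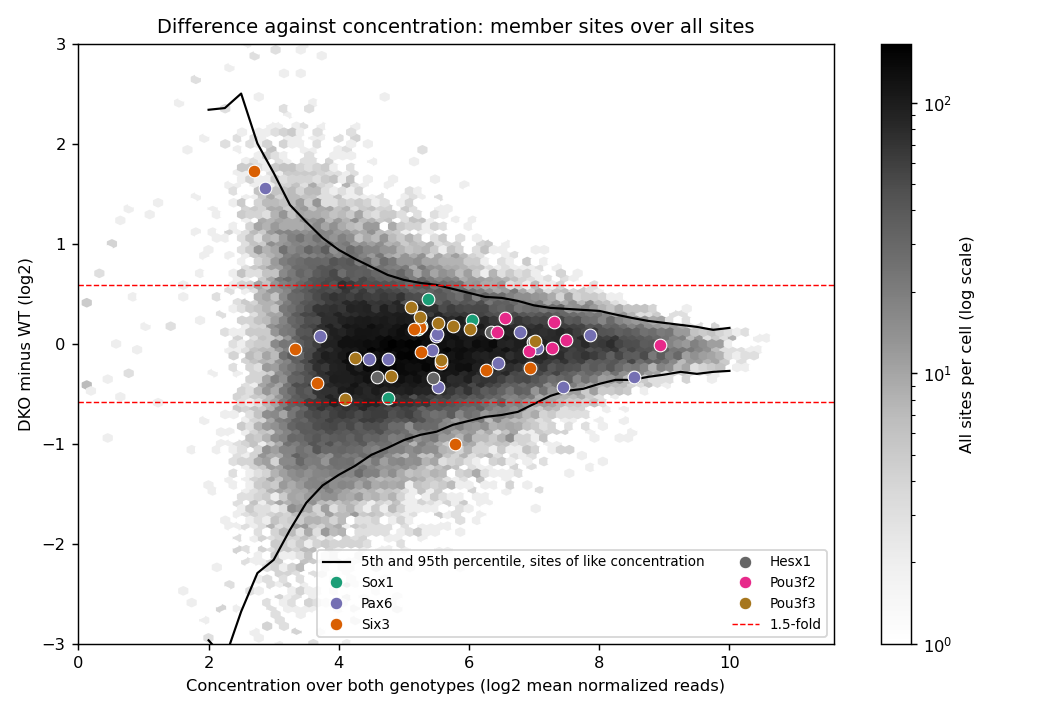
DKO minus WT difference (log2) against the concentration over both genotypes for the member sites (coloured by gene) over all sites (grey, shaded by count on a log scale), with differences beyond 3 not drawn; black lines are the 5th and 95th percentile of sites of like concentration and dashed lines are 1.5-fold. The Six3 site at -1.0 is the only member outside the black lines, and both higher sites lie at the left edge, where all sites scatter most.

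Six3 (chr17:85620834-85626191, + strand) held the only member site called lower. The site at chr17:85613110-85614370, 1260 bp wide and centred 7094 bp upstream of the TSS, was at 6.20 (73.5 reads) in WT and 5.20 (36.8 reads) in DKO EpiLCs, a difference of -1.0. Sites of like concentration ranged from -0.80 to 0.54, and 2.87% of those 7818 sites were at or below -1.0. Its midpoint lies in a noncoding exon of Six3os1, a long noncoding RNA gene transcribed opposite to Six3, whose TSS is nearer (4656 bp) than that of Six3. The neighbouring sites lay within 1.5-fold. The site centred 5904 bp upstream went from 5.31 to 5.23, and the strongest Six3 site, 2989 bp upstream, from 7.05 (133 reads) to 6.81 (112 reads), differences of -0.08 and -0.24. The printed centre of the lower site includes a dinucleotide repeat of 30 bases.

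The site nearest the Six3 TSS held few reads in both genotypes. It lies at chr17:85620510-85620740, is 230 bp wide and ends upstream of the TSS without covering it. Its rank among promoter sites is by reads per site, which are not scaled for width. The site 209 bp upstream of the TSS was at 3.84 (14.3 reads) in WT and 3.45 (10.9 reads) in DKO, a difference of -0.39 inside the like range of -1.49 to 1.10, and 4.55% of the 15001 sites within 1 kb of any TSS were lower than this in WT. The site in the gene's intron, 2706 bp downstream, was at 5.07 and 5.22. Downstream of the gene, the site at 13066 bp (chr17:85633800-85634000) was called higher, at 1.59 (3.01 reads) in WT and 3.32 (9.99 reads) in DKO. The difference of 1.73 lies inside the wide range of its like, -2.38 to 2.08, and the site holds a dinucleotide repeat of 54 bases. Whether repeats, where reads map less surely, have a part in either call was not tested. The reads summed over the 10 Six3 sites were 476 in WT and 408 in DKO, a log2 ratio of -0.22, the most negative of the 6 genes. Without the lower site it was -0.12, and over the 4 sites whose nearest TSS is that of Six3 it was -0.07. The 39 other sites within 1 Mb of the Six3 TSS on either side had a median difference of -0.17. Such regional medians count every site alike, whereas the summed ratios weight sites by their reads.

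Pax6 (chr2:105668896-105698410, + strand, with 4 curated TSSs) had the most sites, 14, more than 98.8% of genes, and 0 were lower. The widest member site, 3690 bp at chr2:105666420-105670110, covers its first promoter and was at 8.70 (416 reads) in WT and 8.37 (331 reads) in DKO EpiLCs. This difference of -0.33 lies just inside the range of its like, -0.35 to 0.26, and 6.39% of those sites were at or below it. The site 434 bp upstream of an internal TSS was at 7.65 (201 reads) and 7.22 (149 reads), a difference of -0.43, again inside its range of -0.50 to 0.35. A weaker intronic site 1554 bp upstream of that TSS had the same difference, from 5.73 to 5.30. The site with its midpoint closest to any Pax6 TSS, 431 bp downstream of another internal one, was at 6.54 and 6.35, a difference of -0.19. It starts downstream of that TSS and does not cover it. These 4 sites lie over or near the first promoters and were below 0, while the site among them 3364 bp downstream of the first TSS went from 5.46 to 5.56. Sites further inside the gene were within 0.15 of each other between genotypes. The site 1533 bp upstream of a later TSS was at 7.82 and 7.91, and that 9002 bp downstream at 6.72 and 6.84.

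The only Pax6 site past 1.5-fold lay 45612 bp downstream, at chr2:105727960-105728190 in an intron of Elp4, an Elongator subunit gene whose introns are known to hold Pax6 enhancers. It was at 1.89 (3.71 reads) in WT and 3.45 (10.9 reads) in DKO, a difference of 1.56 inside the like range of -2.24 to 1.84. The other site in Elp4, 34847 bp downstream, went from 4.54 to 4.39. Summed over the 14 sites, reads were 1430 in WT and 1290 in DKO, a log2 ratio of -0.14. The 90 other sites within 1 Mb of the Pax6 TSSs on either side had a median difference of -0.13. Over the sites more than 5 kb from a TSS the ratio was 0.03.

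Sox1 (chr8:12395519-12399555, + strand), a gene with a single coding exon, had 4 of its 5 sites above 0 and 0 past 1.5-fold. At its promoter, the site centred 54 bp upstream of the TSS was at 5.91 (60.1 reads) in WT and 6.15 (71.0 reads) in DKO, a difference of 0.24, and the site over the coding exon was at 5.13 and 5.28. The largest increase was 5646 bp downstream, where the site at chr8:12400830-12401500 went from 5.13 (35.0 reads) to 5.58 (47.8 reads). This difference of 0.45 is the most positive among the member sites at a concentration of at least 4, and it lies inside its range of -0.89 to 0.60. The site 43761 bp downstream, with an octamer, was at 5.18 and 5.36. The only Sox1 site below 0, 3714 bp upstream, went from 5.00 (32.0 reads) to 4.46 (22.0 reads), a difference of -0.54 just short of the 1.5-fold limit and inside its range of -1.04 to 0.69. Together the 5 sites had 198 reads in WT and 221 in DKO, a log2 ratio of 0.15. The 35 other sites within 1 Mb of the Sox1 TSS had a median difference of 0.14.

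Hesx1 (chr14:27000362-27002326, + strand) had no site within 1 kb of its TSS. Its nearest site, at chr14:26994340-26994830 and 5777 bp upstream, was at 5.60 (48.5 reads) in WT and 5.26 (38.3 reads) in DKO. The difference of -0.34 was the most negative at this gene and lies inside the range of its like, -0.88 to 0.59. The other 3 sites belong by distance to other genes. The strongest, 29957 bp upstream and 146 bp from the TSS of Appl1, an endosomal adaptor gene, was at 6.98 and 7.0. The promoter site of Il17rd, an inhibitor of Fgf signaling, 38898 bp downstream, was at 6.27 and 6.39, the most positive difference at 0.12. The log2 ratio of summed reads over the 4 sites was -0.04 (279 reads in WT, 271 in DKO). The 26 other sites within 1 Mb of the Hesx1 TSS had a median difference of 0.06.

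Pou3f2 (chr4:22482095-22488366, - strand) had the highest median concentration of the 6 loci (7.18 in WT, 7.26 in DKO) and the narrowest range of differences. Its promoter site, 2170 bp wide at chr4:22486780-22488950, was at 8.94 (491 reads) in WT and 8.93 (488 reads) in DKO EpiLCs, above 94.3% of the sites within 1 kb of a TSS. The 7 sites all lay between 10816 bp downstream and 9674 bp upstream, at 6.37 or more in WT and 6.49 or more in DKO. The most positive difference was 0.26, at the site farthest downstream (from 6.42 to 6.68), and the most negative was -0.07, at the site 6744 bp upstream (from 6.95 to 6.88). Reads summed to 1260 in WT and 1300 in DKO, a log2 ratio of 0.04. The 63 other sites within 1 Mb of the Pou3f2 TSS had a median difference of 0.09.

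Pou3f3 (chr1:42695768-42700210, + strand) was likewise level at its promoter. The site centred 213 bp upstream of the TSS, the strongest of 10, was at 6.99 (127 reads) in WT and 7.02 (130 reads) in DKO. The sites 1057 bp and 2647 bp downstream, in the body of this single-exon gene, went from 5.10 to 5.37 and from 5.42 to 5.63. The weaker site between them, 1792 bp downstream, went the other way, from 4.32 to 4.18. The extremes lay upstream, within the noncoding RNA gene Pantr1, a neighbour of Pou3f3. The site 40848 bp upstream (chr1:42654830-42655010) went from 4.34 (20.3 reads) to 3.79 (13.8 reads), a difference of -0.55 inside its range of -1.26 to 0.90, and the site 9098 bp upstream (chr1:42686330-42687010) went from 4.91 to 5.28, a difference of 0.37. Reads summed to 468 in WT and 487 in DKO, a log2 ratio of 0.06. The 37 other sites within 1 Mb of the Pou3f3 TSS had a median difference of 0.05.

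**Figure D3:**
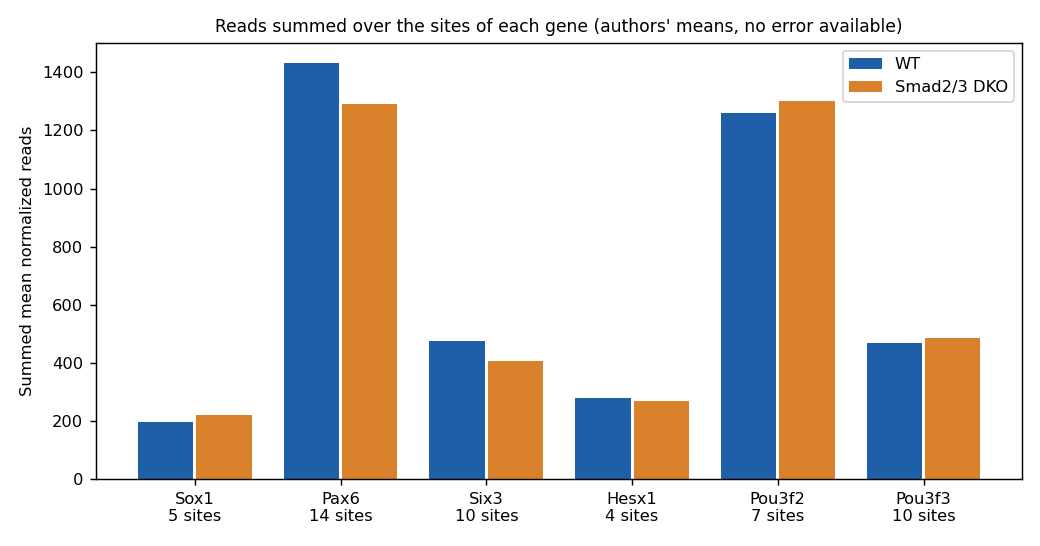
Mean normalized reads summed over all sites of each gene in WT (blue) and Smad2/3 DKO EpiLCs (orange), from the authors' means and so without error bars. The bars of each pair are close, from 476 against 408 at Six3 to 198 against 221 at Sox1.

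The promoters were ordered by the WT concentration at the site whose midpoint is nearest the TSS. They ran from Pou3f2 (8.94) through Pou3f3 (6.99), Pax6 (6.54) and Sox1 (5.91) to Six3 (3.84), with Hesx1 lacking a promoter site. The place of Pax6 depends on which of its 4 TSSs is taken, since the site over its first promoter was at 8.70 in WT and 8.37 in DKO, next to Pou3f2. Concentration counts the reads over a whole site, and widths differ. The nearest sites were 230 bp wide at Six3, 680 bp at Pax6, 710 bp at Sox1, 790 bp at Pou3f3 and 2170 bp at Pou3f2. The site over the first Pax6 promoter was 3690 bp wide. The order is thus one of reads per site and not of accessibility per base. By the nearest site, the order in DKO was unchanged, at 8.93, 7.02, 6.35, 6.15 and 3.45. Without a spread over libraries, it cannot be said which neighbours in this order differ. The summed log2 ratios were between -0.22 and 0.15, with 3 genes below 0 (Six3, Pax6 and Hesx1) and 3 above (Pou3f2, Pou3f3 and Sox1).

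The wider group of 29 neural genes, among them Sox2, Otx1, Lhx2 and Nes, was closer to the series as a whole. Of its 188 sites, 32 were lower (17.0%) and 12 higher (6.38%), beside 16.0% and 8.51% over all sites, and the median difference was -0.09. At a concentration of at least 4, the largest decrease was 15006 bp downstream of the TSS of Pax3, a neural crest and dorsal neural tube factor, from 6.15 to 4.67 (-1.48). The largest increase was 14353 bp upstream of Hes5, a Notch target, from 4.62 to 5.60 (0.98). Per gene, the log2 ratio of summed reads ran from -0.40 at Pax2 to 0.41 at Msi1 with a median of -0.08, with 18 genes below 0 and 10 above. At 7 of the 29 genes no site passed 1.5-fold. The POU gene Pou3f1 (Oct6), related to Pou3f2 and Pou3f3 and a marker of primed cells, had 12 sites of which 5 were lower and 1 higher.

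Genes of other fates are given for comparison, against the same 16.0% lower and 8.51% higher over all sites. Of 61 sites at 10 surface ectoderm genes, 10 were lower (16.4%) and 7 higher (11.5%), with a median of -0.04. At a concentration of at least 4, 7 of 55 were lower and 6 higher, beside 12.4% and 5.40% of all sites at that level. The extremes were at Trp63 (from 4.89 to 4.15) and Grhl2 (from 3.99 to 4.98). Of 55 sites at 10 primitive streak genes, 9 were lower (16.4%) and 4 higher (7.27%), with a median of -0.16. Among the 43 with a concentration of at least 4, lower sites numbered 4 and higher sites 1. The extremes were at Mixl1 (from 4.93 to 3.81) and Fgf8 (from 4.07 to 4.76). These extremes were taken at a concentration of at least 4. No difference between the groups was tested.

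**Figure D4:**
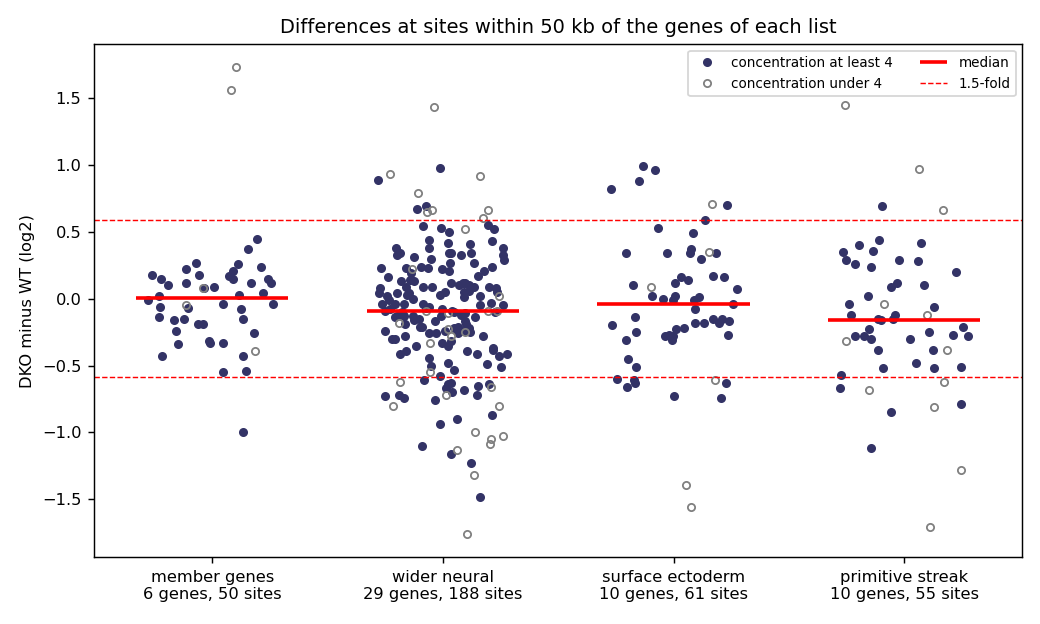
DKO minus WT difference (log2) at each site within 50 kb of the 6 member genes, 29 wider neural, 10 surface ectoderm and 10 primitive streak genes; filled symbols have a concentration of at least 4, open ones less, red bars are medians and dashed lines are 1.5-fold. The member medians lie at 0.005, and among filled member symbols only that at -1.0 lies outside the dashed lines.

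In sequence, the member sites were richer in G, C and CpG than sites in general. In 300 bases around each midpoint, the median GC content was 58.33% against 51.0% over all sites, and the median ratio of observed to expected CpG was 0.59 against 0.29. Exact matches to 7 short motifs were counted on both strands in the same windows. The POU octamer ATGCAAAT was found at 3 of 50 sites, beside 3.16% of all sites. At Sox1 it starts 18 bp downstream of the TSS in the promoter site and 43706 bp downstream in the distal site. The 3 sites had differences on both sides of 0. The TEAD motif GGAATG was at 6 sites (17.6% of all sites) and the OTX motif GGATTA at 1 (8.71%). The SOX motif CATTGTT (4.29%), the FOXH1 motif TGTGGATT (1.07%), the SMAD palindrome GTCTAGAC (0.224%) and the TCF/LEF motif CTTTGAT (4.37%) were found in 0 of these windows. Over the whole width of the member sites, which varies, TEAD was at 10 sites, OTX at 5, TCF/LEF at 4, the octamer at 3, SOX and FOXH1 at 1 each and the SMAD palindrome at 0. Whole widths were not searched over all sites, so the shares above, from windows of 300 bases, cannot be set beside these counts. The lower Six3 site held none of the 7 over its whole width. A lack of these exact letters in a short window says nothing about binding of the factors.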

How the data were processed

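ATAC-seq libraries came from 3 WT and 3 Smad2/3 DKO EpiLC differentiations and 1 Tn5 genomic DNA control. Alignment by the authors was to mm10, in paired-end mode with bowtie2 and with no mixed or discordant pairs allowed. Reads with several placements or on blacklisted regions were dropped, and PCR duplicates were taken out in Samtools. DANPOS2 defined sites from all triplicates with the genomic DNA control, and DiffBind compared their reads. Tool versions, the normalization and any shift of reads for Tn5 are not given in the sources used here. The deposited table holds log2 concentrations, which are the log2 of the authors' mean normalized reads over all libraries and within each genotype. Values of single libraries are not among its columns, so depth is unknown and the clone, the spread between differentiations and counting error could not be assessed. The fold, p-value and FDR, 3 columns of the authors' own comparison, were not used.

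Sites were assigned by midpoint to every gene with a curated RefSeq TSS within 50 kb in GRCm38.p6, the same build (45756 transcripts, 31603 TSSs, 26180 genes). Distances run to the nearest TSS of that gene, and the coordinates of sites are printed as deposited. The DKO minus WT difference of the 2 genotype concentrations was called past 1.5-fold, the fold in the study's methods. Sums add mean normalized reads over sites. Where a printed sequence is from a site over 300 bases wide, it is the 300 bases around the midpoint. No test was run, since the columns used hold no replicates and those of the authors' comparison were set aside.

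For each gene, the site nearest the TSS, the strongest site, sites past 1.5-fold and the most negative and positive difference are named. From the lists, the genes with the extreme sites at a concentration of at least 4 are named, and other sites and genes were named after their values were seen. Members, gene lists and motifs were chosen with earlier results of these data known. Alternatives were other distances (20 and 100 kb), all RefSeq TSSs, nearest-gene assignment, a concentration minimum of 4, centring, 5 added reads and a fold of 2. The code was tested on simulated data. Python 3.11.15, numpy 2.4.6, pandas 2.3.3 and matplotlib 3.10.9 were used. Signal tracks were not analysed here. A few genes of the wider lists and 1 sequence are not reported here.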

Additional observations from a re-analysis of the deposited data

How the results depend on the processing

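No paired analysis was possible because the table holds genotype means without values for single libraries, and for the same reason no differentiation could be left out in turn. Of the values recomputed, 49 stayed within 0.1 log2 or 1.5 times of the reported value and 16 moved; the median difference over member sites moved by less than 0.1 in the alternatives tried. The member sites called lower were 2 within 100 kb, 0 where the nearest TSS had to belong to a member gene and 0 at a fold of 2. The lower Six3 site, at -1.0 on the log2 scale, lies exactly at a fold of 2 and so did not pass it. The member sites called higher were 1 within 20 kb, 4 within 100 kb and 0 at a concentration of at least 4. In the wider neural group, lower sites numbered 10 at a fold of 2 and 20 at a concentration of at least 4, and higher sites 1 and 4. The summed log2 ratio of sites over 5 kb away was 0.32 at Sox1 and 0.03 at Pax6, the latter above 0 instead of below. At Six3 it was -0.07 over sites nearest to Six3 and -0.12 without the site with the largest change, and at Hesx1 it was -0.34 both within 20 kb and over its nearest site, since 1 site remained. Counts this small turn on 1 or 2 sites, and sites under 16 reads carry the calls of higher accessibility.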

Other observations

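Beyond 50 kb, 44 further sites lay between 50 and 200 kb from the TSSs of the 6 genes, a distance chosen after the data were seen. Of these, 3 were lower, all at a concentration of at least 4, and 2 were higher, both below it. Over all sites of the series 16.0% were lower and 8.51% higher. The deepest decrease was 193637 bp downstream of Pax6, at chr2:105875870-105876330 in an intron of Elp4, from 5.64 in WT to 3.65 in DKO EpiLCs. That difference of -1.99 was larger than at any member site, and 0.404% of sites of like concentration were at or below it. The second Elp4 site, 151497 bp downstream of Pax6, went from 5.11 to 4.33, and a site in Il17rd, 70688 bp downstream of Hesx1, from 5.07 to 4.16. At both of the last, the difference lay inside the range of sites of like concentration (-1.03 to 0.70 and -1.07 to 0.70). For the first site the TSS of Elp4 is nearer (28464 bp) than that of Pax6.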
